A study of Mus musculus with 15 samples.

Results

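The comparison set one way of sorting mouse liver endothelial cells against another, gene by gene. In the side-population sort, cells labelled SP were compared with cells labelled MP, both from mice labelled 8w. In the antibody sort, cells carrying CD157 and CD200 on their surface (CD157+CD200+) were compared with cells carrying neither (CD157-CD200-), which the series' design text places in adult liver without a more exact age. For each gene the interaction was the SP-minus-MP difference less the CD157+CD200+-minus-CD157-CD200- difference. It used 12 of the series' 15 arrays, 3 in each of 4 groups. The remaining 3 arrays, of CD157-CD200+ cells, entered no fit. SP and MP stand as letters in the labels and were read here as side population and main population. All groups were labelled as liver endothelial cells, and their strain, sex, genotype and treatment were not given in the sources used here. The design text calls the 3 samples of a group independent, without naming animals or pools, so p-values measure the spread between these samples.

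A side population is the small set of cells that pumps a DNA-binding dye out through membrane transporters, and the main population is the set that keeps it. CD157, the product of Bst1, is an ectoenzyme of nicotinamide nucleotide metabolism, and CD200 is a membrane glycoprotein that damps myeloid cells. Liver endothelium lines sinusoids, which are thin-walled, fenestrated and rich in scavenger receptors, and larger vessels, which are portal veins, hepatic arteries and central veins. Endothelium of the central vein makes the ligands Wnt2 and Wnt9b and the R-spondin Rspo3, and these act on the hepatocytes around the vein. Von Willebrand factor, made by Vwf, is stored by endothelium of larger vessels in Weibel-Palade bodies. Rrm2 is a subunit of ribonucleotide reductase, which makes deoxynucleotides for DNA synthesis.

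The promoters of 2 genes that were higher in SP cells and lower in CD157+CD200+ cells, Rrm2 and Cks2, and of Wnt9b, which went the other way, are printed because each gene's differences in the 2 sorts had opposite signs. Each run is the 250 bases before the start site that the gene's RefSeq promoter entry uses, 5′ to 3′ on the gene's strand, in GRCm38.p6. Capitals mark CCAAT, or ATTGG where it lies on the other strand. Rrm2 lies at chr12:24708004-24708253 on the plus strand and Cks2 at chr13:51644982-51645231 on the plus strand. The Wnt9b run, chr11:103749822-103750071 on the minus strand, overlaps the gene's own RefSeq span, so it is not wholly upstream of the gene.
Rrm2: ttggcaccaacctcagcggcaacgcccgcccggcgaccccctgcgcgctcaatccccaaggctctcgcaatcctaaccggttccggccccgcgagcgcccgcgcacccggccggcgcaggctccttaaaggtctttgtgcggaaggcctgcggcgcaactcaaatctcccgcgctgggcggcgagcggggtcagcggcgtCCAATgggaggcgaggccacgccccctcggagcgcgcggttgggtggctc
Cks2: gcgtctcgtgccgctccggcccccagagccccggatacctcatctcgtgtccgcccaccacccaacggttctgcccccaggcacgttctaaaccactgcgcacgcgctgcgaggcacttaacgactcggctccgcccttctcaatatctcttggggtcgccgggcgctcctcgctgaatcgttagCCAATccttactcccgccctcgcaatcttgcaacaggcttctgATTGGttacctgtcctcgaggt
Wnt9b: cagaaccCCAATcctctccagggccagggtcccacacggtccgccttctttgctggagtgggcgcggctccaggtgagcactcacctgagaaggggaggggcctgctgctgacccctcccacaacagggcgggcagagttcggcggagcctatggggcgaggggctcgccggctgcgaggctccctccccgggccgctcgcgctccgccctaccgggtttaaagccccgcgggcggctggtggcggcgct
CCAAT, searched on both strands, was present in 33.8% of 32851 RefSeq promoters of this length. Rrm2 and Wnt9b held 1 match each and Cks2 held 2. A match is a string of letters and not evidence that a factor binds there.

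Levels below are log2 intensities relative to the 75th percentile of the same array, which was 157 to 297.3 intensity units over the 12 arrays. Of the spots of an array, 57.3% to 69.4% were well above background, and none was saturated. Differences are log2 differences between group means with their standard errors (n = 3 arrays per group), and adjusted p is limma's Benjamini-Hochberg value over 24865 features, of which 14828 had a gene symbol. A feature was called where adjusted p was under 0.05. The SP and MP arrays were read on one scanner and the antibody arrays on another, with different software versions, so sort and scanner cannot be told apart. A shift that a scanner adds to both groups of a sort drops out of that sort's difference, while a level set across the sorts rests on the array scaling alone. Fewer cells of a type and less RNA per cell cannot be told apart in these bulk samples.

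Both sorts enriched Bst1 and Cd200, the genes of the 2 surface markers. Bst1 was at 2.70, 2.83 and 2.85 in SP, -1.14, -1.69 and -1.82 in MP, 2.45, 2.48 and 2.77 in CD157+CD200+, and -3.62, -3.16 and -2.73 in CD157-CD200- cells. The Bst1 difference was 4.34 ± 0.26 in the side-population sort and 5.73 ± 0.26 in the antibody sort, and the interaction of -1.39 ± 0.36 missed the threshold (adjusted p = 0.054). It passed in 3 of 23 other settings, which were the replicate block, the authors' deposited series table and the fit without CD157-CD200- replicate 3, with a lowest adjusted p of 0.0298. Cd200 was higher by 3.39 ± 0.22 in SP than in MP cells. It was not well above background on any CD157-CD200- array, so the antibody sort raised it by at least 319.95-fold. A bound of this kind compares the brighter group with the lowest signal that counts as detected. The fitted differences used the measured signals. The interaction missed the threshold for the general endothelial genes: for Pecam1 it was -0.29 ± 0.33 (adjusted p = 0.84), and for the endothelial cadherin Cdh5 it was 0.26 (adjusted p = 0.86). Ptprc, the CD45 marker of blood cells, was detected on all 12 arrays at -2.58 to -0.65, and its interaction was 0.45 (adjusted p = 0.82).

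**Figure D1:**
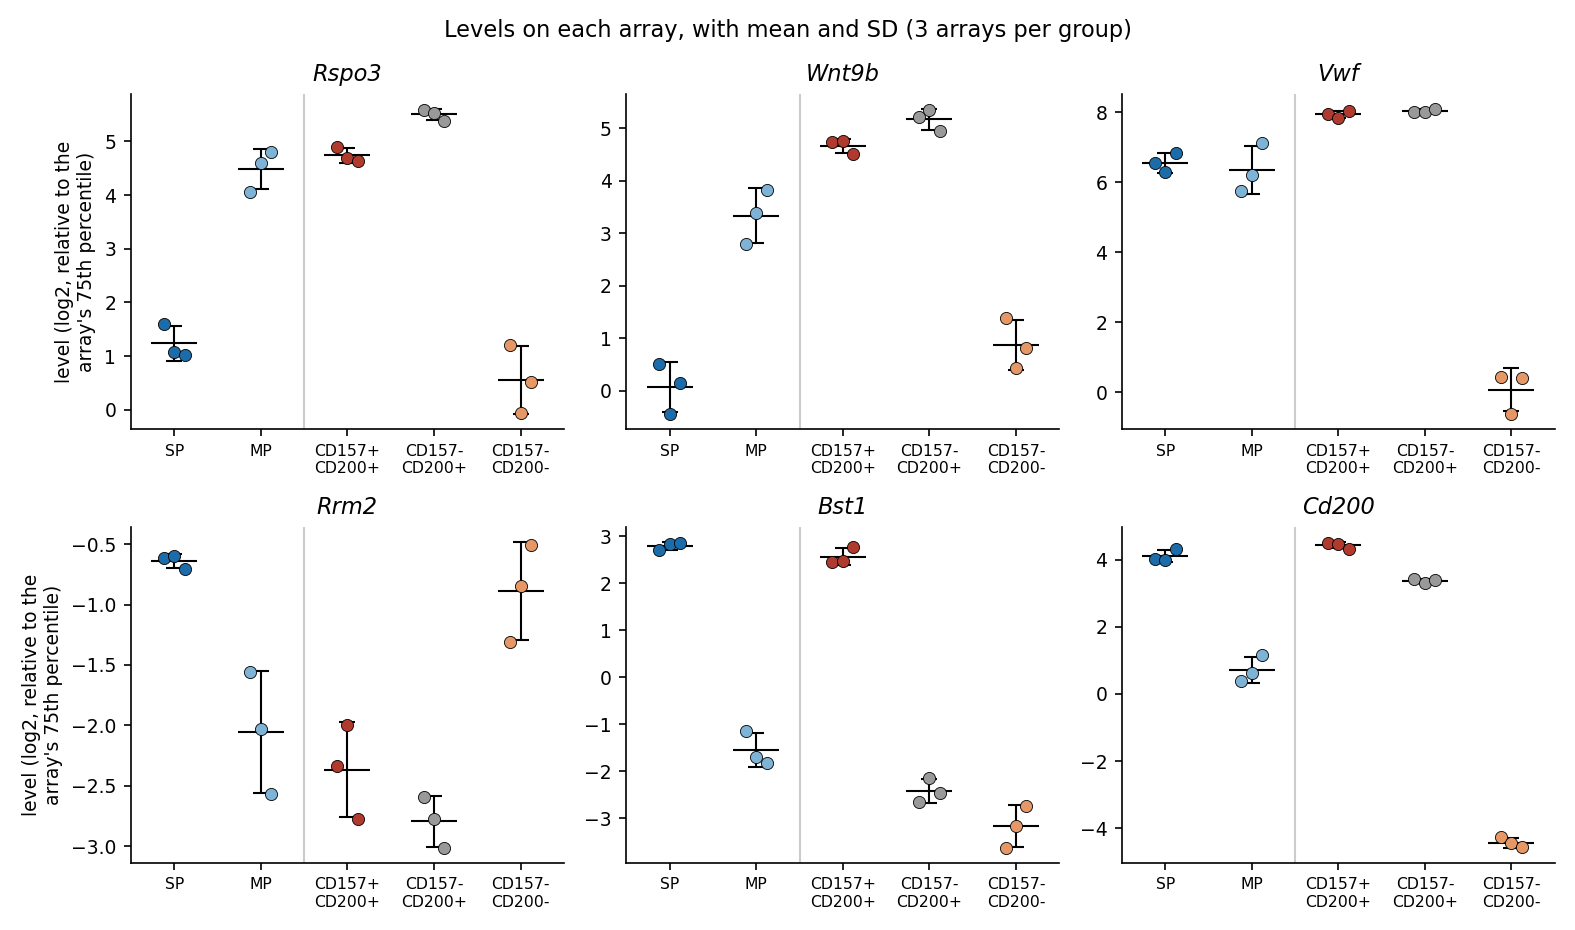
Log2 level of 6 genes relative to each array's 75th percentile, with one point per array, bars for each group's mean and SD, and groups on the horizontal axis. Rspo3 and Wnt9b are low in SP and in CD157-CD200- cells, Vwf is low in CD157-CD200- cells alone, and Rrm2 is high in SP and in CD157-CD200- cells.

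Over all features, 4390 (17.7%) were called in the side-population sort, with 2393 (9.62%) higher and 1997 (8.03%) lower in SP cells. The antibody sort had 3053 called (12.3%), with 1654 (6.65%) higher and 1399 (5.63%) lower in CD157+CD200+ cells. Most of what both sorts called moved the same way: of 1667 features called in both, 1556 had the same sign and 111 had opposite signs. The interaction was called for 1029 features (4.14%), above 0 for 414 (1.66%) and below 0 for 615 (2.47%). With the replicate number as a block, the 1029 became 1799, of which 808 lay above 0 and 991 below. The spread of the 2 differences over features was close, with a standard deviation of 0.896 in the side-population sort and 0.938 in the antibody sort, and the median interaction was 0.00. In the series table that the authors deposited, the median interaction was -0.15 and the split was 270 above and 725 below 0. After a normexp background correction the split was 744 above and 644 below.

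The 1029 features fell into sets by which sort moved them. Opposite calls numbered 111 (0.446%), with 83 (0.334%) lower in SP and higher in CD157+CD200+ cells and 28 (0.113%) the other way round. Gene symbols were known for 66 of the former and 19 of the latter. With the block there were 205. The side-population sort alone moved 408 features, 213 (0.857%) up and 195 (0.784%) down, and the antibody sort alone moved 352, 231 (0.929%) up and 121 (0.487%) down. With the block these were 807 and 495. A further 134 moved the same way in both sorts by different amounts, and 24 (0.0965%) were called in neither sort taken alone. A p that misses the threshold does not show that a gene did not change. Genes described below as moved by one sort were in a stricter set only where their other difference had a 95% interval inside ± 1. It did for 349 features (1.4%). Outside this set were Bmp4, Edn1, Eln, Fbln2, Myrip, Reck, Rnf43, Wnt2, Fabp4, Cdt1, Ccna2, Rsad2 and Krt19. For these genes a change in the other sort as well was not excluded. Just inside the threshold lay Etl4, with an interaction of 1.68 (adjusted p = 0.0498), and just outside lay Inka1, with 1.73 (adjusted p = 0.0501).

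**Figure D2:**
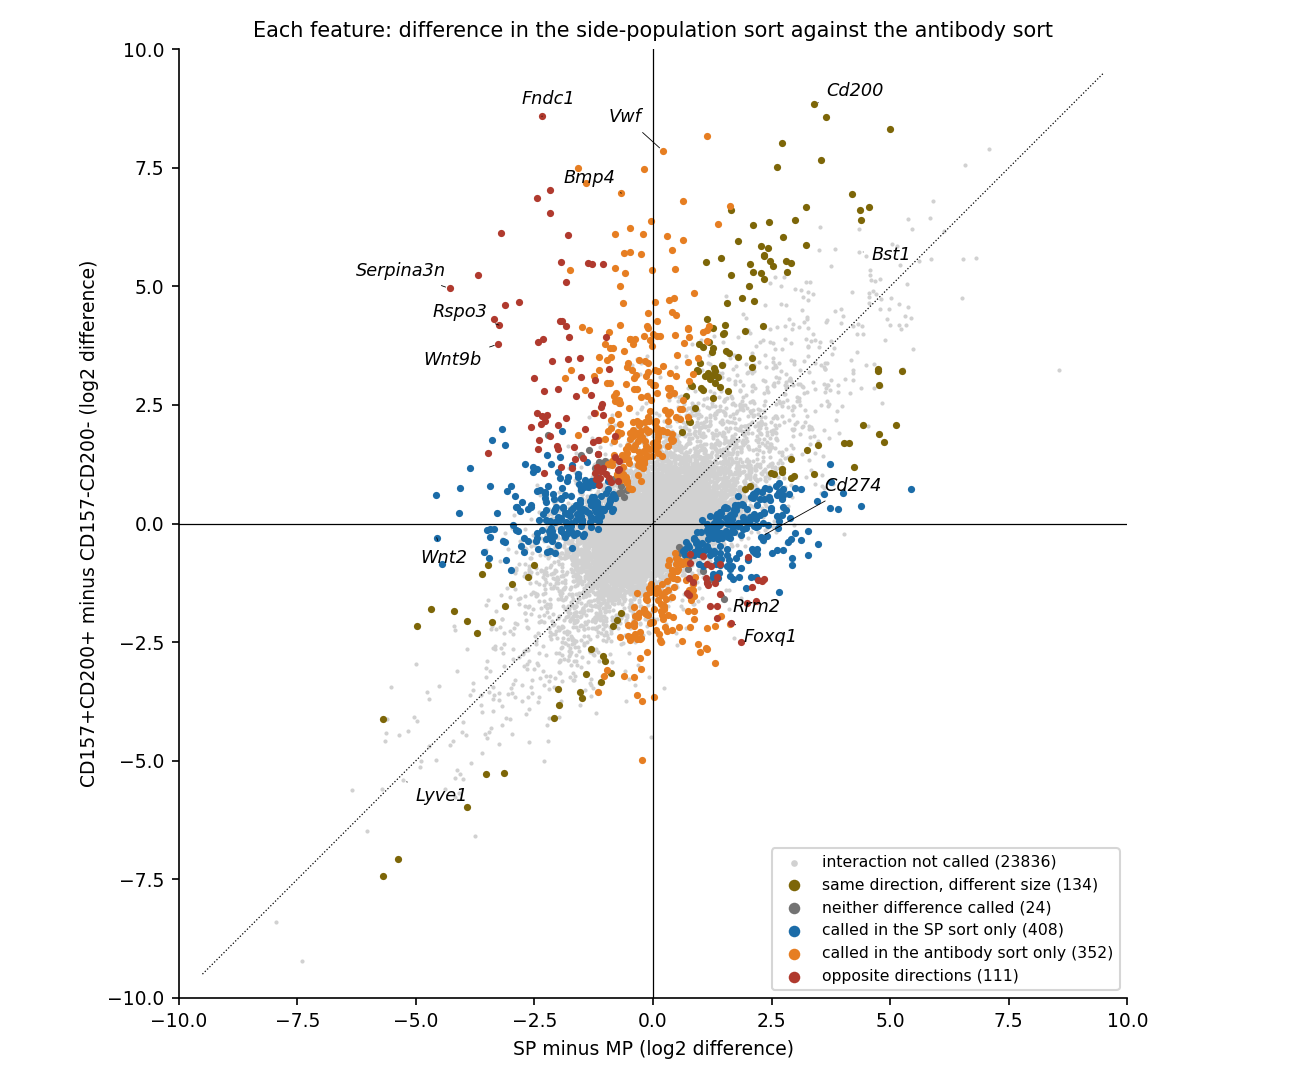
Each point is a feature, with its log2 SP-minus-MP difference on the horizontal axis and its log2 CD157+CD200+-minus-CD157-CD200- difference on the vertical axis, coloured by the set it fell into. Features called in both sorts lie mostly in the lower left and upper right, and Rspo3 and Wnt9b lie in the upper left with differences of -3.25 and 4.18, and -3.26 and 3.78.

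Rspo3, the R-spondin that makes cells more sensitive to Wnt ligands, was lower in SP than in MP cells and higher in CD157+CD200+ than in CD157-CD200- cells. Its level was 1.61, 1.08 and 1.02 in SP and 4.06, 4.59 and 4.80 in MP cells. It was 4.89, 4.68 and 4.63 in CD157+CD200+ and 1.20, -0.06 and 0.51 in CD157-CD200- cells. The groups did not overlap in either sort: SP arrays sat beside CD157-CD200- arrays, and MP arrays beside CD157+CD200+ arrays. The differences were -3.25 ± 0.31 (adjusted p = 2.4e-05) and 4.18 ± 0.31 (adjusted p = 1.9e-06), which are 9.5-fold lower and 18.2-fold higher. Within single slides, each of which held 1 array of each group of a sort, the SP-minus-MP difference was -2.46, -3.51 and -3.78 and the antibody-sort difference 3.69, 4.74 and 4.12. The interaction was -7.43 ± 0.44 (adjusted p = 2.8e-06) and stayed between -7.76 and -6.90 over 24 other settings.

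Wnt9b, the central vein Wnt ligand, had the same pattern. Its level was 0.50, -0.44 and 0.15 in SP and 2.79, 3.39 and 3.83 in MP cells. It was 4.73, 4.75 and 4.5 in CD157+CD200+ and 1.38, 0.44 and 0.81 in CD157-CD200- cells. Again neither sort's groups overlapped. The differences were -3.26 ± 0.33 (adjusted p = 3.2e-05) and 3.78 ± 0.33 (adjusted p = 6.1e-06), with an interaction of -7.05 ± 0.46 (adjusted p = 4.4e-06). On single slides they were -2.29, -3.83 and -3.68 in the side-population sort and 3.34, 4.32 and 3.69 in the antibody sort.

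Wnt2, which central vein and neighbouring sinusoidal endothelium make, followed Rspo3 and Wnt9b in the side-population sort and not in the antibody sort. Its level was -0.77, -0.63 and -0.86 in MP cells, and it was not well above background on any SP array, where the measured values were -4.47, -5.89 and -5.59. In the antibody sort it was at -1.42, -3.78 and -2.40 in CD157+CD200+ and -2.27, -3.07 and -1.37 in CD157-CD200- cells, and those groups overlapped. Wnt2 was at least 8.57-fold lower in SP than in MP cells (adjusted p = 0.00015), while the antibody-sort difference was -0.30 ± 0.57 (adjusted p = 0.86). The interaction, -4.26 ± 0.80, had an adjusted p of 0.010.

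Among 15 Wnt ligands and R-spondins measured, Rspo3, Wnt9b and Wnt2 were the 3 with a called interaction, all below 0. The list's median interaction was -0.19, against 0.00 over all features. Of 19 Wnt receptors and co-receptors, 2 were called, both higher in the antibody sort alone. The share over all features was 4.14%, which also stands beside the counts of inhibitors and targets that follow. Fzd7, a Frizzled receptor, differed by -0.04 ± 0.33 in the side-population sort and by 2.60 ± 0.33 in the antibody sort (interaction adjusted p = 0.0071). Reck, which helps certain Wnt ligands reach their receptor, differed by -0.49 ± 0.27 and 1.90 ± 0.27 (interaction adjusted p = 0.0033). Of 13 Wnt inhibitors, Frzb and Rnf43 were called. Rnf43, a ubiquitin ligase that removes Frizzled receptors, was higher in the antibody sort by 3.45 ± 0.67 and differed by -0.97 ± 0.67 in the side-population sort, and its interaction call was lost without MP replicate 3 or CD157+CD200+ replicate 3 (adjusted p at most 0.0545). Frzb, a secreted Wnt antagonist, went opposite ways, with a difference of -1.97 ± 0.52 in the side-population sort and at least 7.34-fold higher in the antibody sort. Without SP replicate 1 or 2, or MP replicate 2 or 3, Frzb no longer counted as opposite, and its interaction over all settings ran from -6.88 to -1.82. Of 13 Wnt target genes, 4 were called, 2 above and 2 below 0.

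The central vein list, which holds Rspo3, Wnt9b, Wnt2, Vwf and 11 other genes, had 12 of 15 members with a called interaction (80%, against 4.14% of all features). Of these, 11 were below 0, and the list's median difference was -1.04 in the side-population sort and 1.38 in the antibody sort. The list and its members were chosen with earlier results of these data known. Cdh13, a cadherin of large-vessel endothelium, was at 1.96, 1.88 and 2.39 in SP, 3.33, 3.59 and 3.75 in MP, 4.0, 3.97 and 3.47 in CD157+CD200+ and 2.98, 2.27 and 2.07 in CD157-CD200- cells. It therefore went opposite ways, by -1.48 ± 0.27 and 1.38 ± 0.27 (interaction adjusted p = 0.0011). Fabp4, a fatty acid carrier, fell by 1.25 ± 0.27 in the side-population sort alone and differed by 0.56 in the antibody sort (interaction adjusted p = 0.018). Selp, the P-selectin stored in Weibel-Palade bodies, rose in both sorts but by 2.27 ± 0.36 in the first and 5.29 ± 0.36 in the second (interaction adjusted p = 0.0053). By contrast, the 19 sinusoidal genes measured fell together: 18 were lower in SP and 18 were lower in CD157+CD200+ cells, with medians of -3.91 and -4.12, and 7 had a called interaction, 4 above and 3 below 0. Of all features, 8.03% were lower in SP and 5.63% in CD157+CD200+ cells.

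**Figure D3:**
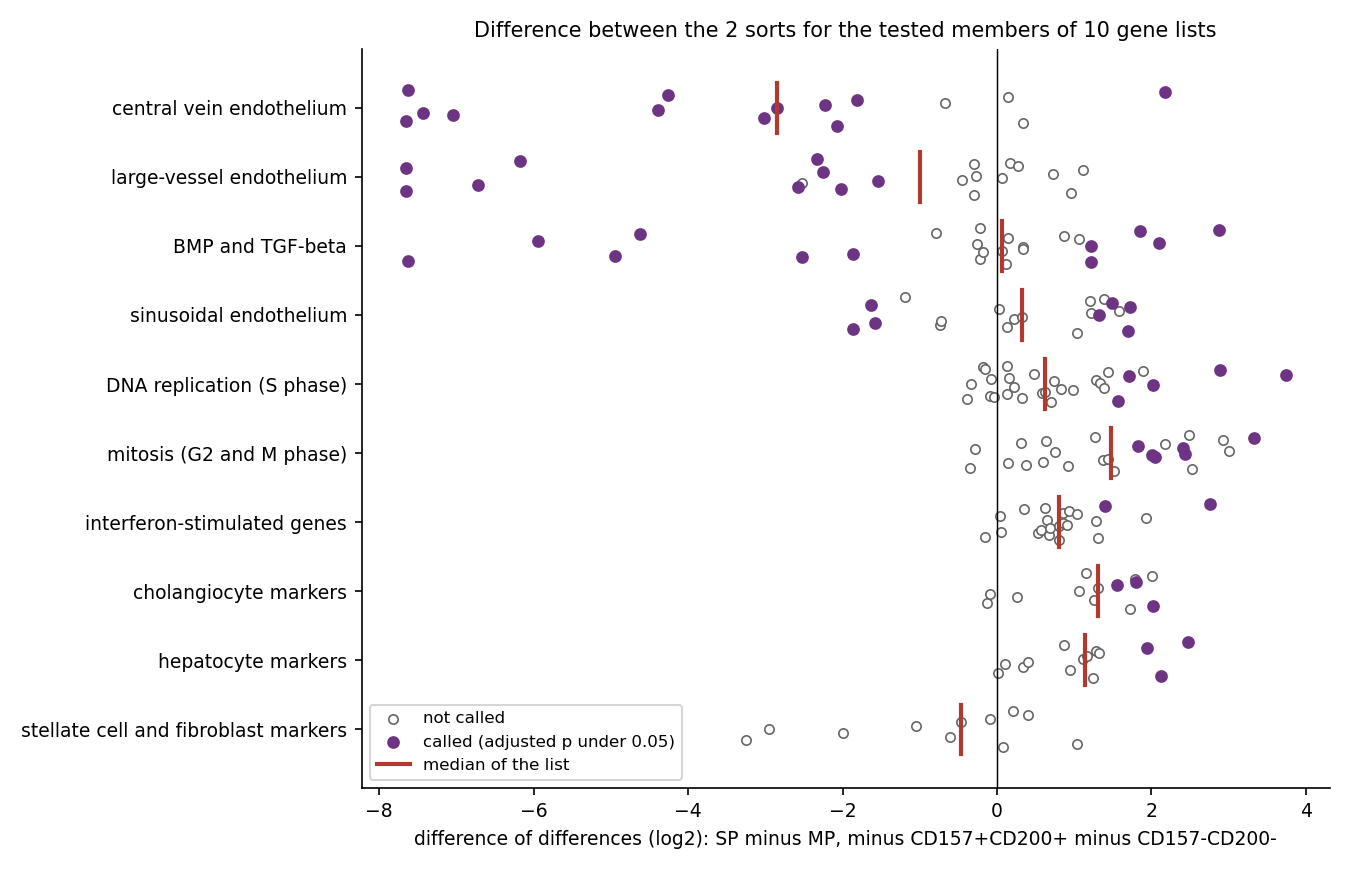
Log2 interaction of each tested member of 10 gene lists (horizontal axis), with filled points for called members, open points for the others and a red line at each list's median. Of 15 central vein genes 11 are called below 0, the sinusoidal median lies at 0.33, and no S-phase or mitosis gene is called below 0.

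Fndc1, a fibronectin type III domain protein, also went opposite ways. It was at -0.70, -1.30 and -1.27 in SP and 0.03, 1.64 and 2.08 in MP cells. It was at 2.79, 3.03 and 3.22 in CD157+CD200+ cells and was not well above background on any CD157-CD200- array. The groups of both sorts were apart, with the first difference -2.34 ± 0.49 (adjusted p = 0.0055), the second at least 120.2-fold, and a fitted interaction of -10.93 ± 0.69 (adjusted p = 3.3e-06).

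Col6a3, a chain of type VI collagen, was at -3.21, -3.64 and -2.82 in SP and -1.14, 0.43 and 0.66 in MP cells. In the antibody sort it was at 1.29, 1.58 and 1.62 against -5.77, -3.73 and -4.38, so again neither sort's groups overlapped. Its differences were -3.20 ± 0.52 (adjusted p = 0.0011) and 6.13 ± 0.52 (adjusted p = 5e-06). On CD157-CD200- replicates 1 and 3 Col6a3 lay below the lowest signal that counted as detected there, -3.72 and -3.93. The size of the second difference is therefore uncertain. Col14a1, a fibril-associated collagen, differed by -3.36 ± 0.60 and 4.32 ± 0.60 (interaction adjusted p = 0.00028). Over 23 other settings the interaction ran from -9.89 to -4.61 for Col6a3 and from -8.28 to -2.93 for Col14a1. Stellate cells also make collagens. Of 11 stellate cell markers, none had a called interaction, against 4.14% of all features, and their median was -0.46. Their summed level, in multiples of the 75th percentile, was 8.14 to 13.4 on SP, 2.81 to 4.14 on MP, 18.6 to 28.6 on CD157+CD200+ and 4.95 to 5.63 on CD157-CD200- arrays. That sum was higher in SP than in MP cells, opposite to Col6a3 and Col14a1, and higher in CD157+CD200+ cells, as they were, and its part in these results was not tested.

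Serpina3n, a secreted serine protease inhibitor, was at -4.01, -5.88 and -4.15 in SP and -1.0, -0.40 and 0.23 in MP cells. It was at -0.45, -0.16 and -1.08 in CD157+CD200+ cells and not well above background in any CD157-CD200- array. This gives a difference of -4.29 ± 0.48 (adjusted p = 7.3e-05) in one direction and of at least 10.098-fold in the other. On SP replicates 1 and 2 Serpina3n lay below the lowest signal that counted as detected there, -3.56 and -3.73. The size of the first difference is therefore uncertain. The interaction of Serpina3n ran from -9.58 to -3.17 over 23 other settings and was called in all. Nt5e, the ectoenzyme CD73 that makes adenosine from AMP, fell by 3.12 ± 0.61 from MP to SP cells and rose by at least 8.06-fold from CD157-CD200- to CD157+CD200+ cells. Samd5, a gene for a sterile alpha motif protein, differed by -2.18 ± 0.40 and by at least 44.9-fold the other way, and Arhgap6, a GTPase-activating protein, by -1.94 ± 0.37 and at least 23.2-fold. The neuropeptide gene Nts and the cornified envelope gene Sprr2b also counted as opposite, but only in 16 and 17 of 23 other settings, and leaving out SP replicate 2 or 3 or MP replicate 1 or 3, and for Nts also MP replicate 2, was enough to lose the side-population call. Their interactions stayed below 0, from -9.68 to -4.63 for Nts and from -8.60 to -2.81 for Sprr2b.

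Over the 66 named genes of this direction, the median difference was -1.69 in the side-population sort and 2.27 in the antibody sort. Both differences were at least 2-fold in 55 of them, and the antibody-sort difference was the larger in size in 49. On all 12 arrays 41 were well above background, 14 were below it on all CD157-CD200- arrays, and 8 were below it on all SP arrays. The members were chosen by these differences, so the medians describe them and test nothing.

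**Figure D4:**
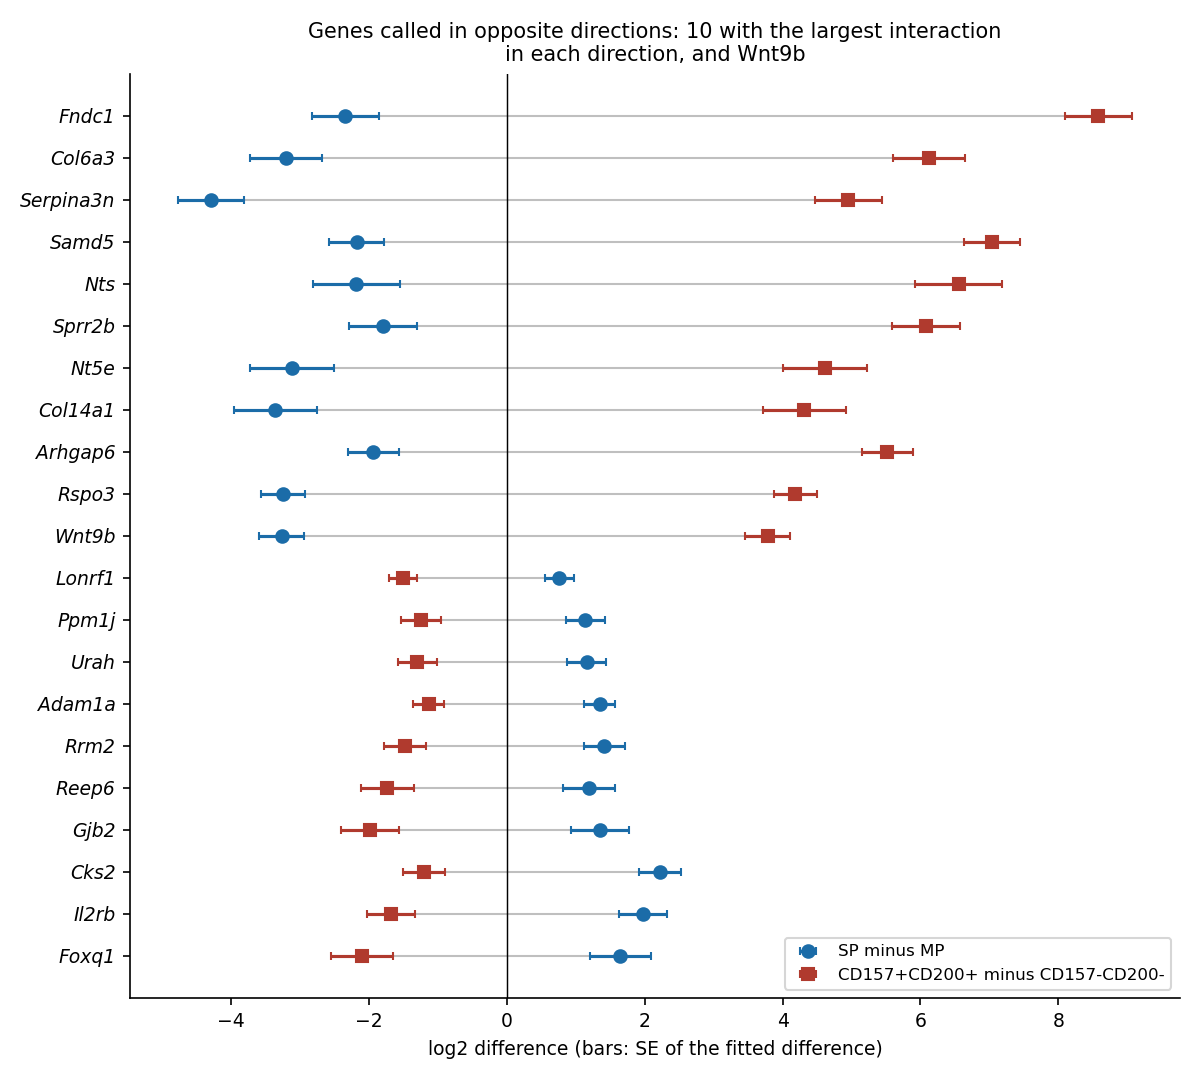
Log2 differences of the 10 named genes with the largest interaction in each opposite direction, and of Wnt9b, with a circle for the side-population sort, a square for the antibody sort and bars for the SE. Each gene's pair of symbols lies on different sides of 0, as for Rspo3 at -3.25 and 4.18. Genes below background on every array of 1 group, Fndc1 among them, are drawn at the fitted value and have only a bound.

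Vwf was moved by the antibody sort and not detectably by the side-population sort. It was at 6.54, 6.28 and 6.84 in SP and 5.75, 6.19 and 7.11 in MP cells, which overlapped. In CD157+CD200+ cells it was at 7.95, 7.84 and 8.04 and in CD157-CD200- cells at 0.44, -0.62 and 0.41. SP, MP and CD157+CD200+ arrays were thus all high, and CD157-CD200- arrays alone were low. The differences were 0.20 ± 0.36 (adjusted p = 0.79) and 7.86 ± 0.36 (adjusted p = 3.9e-08), the latter 233-fold, with an interaction of -7.66 ± 0.51 (adjusted p = 4.4e-06). Single slides gave 0.79, 0.08 and -0.27 in the side-population sort and 7.5, 8.46 and 7.63 in the antibody sort.

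Other genes that were called higher in the antibody sort and not called in the side-population sort included ligands. Bmp4, a bone morphogenetic protein, was at 5.02, 4.77 and 4.84 in SP and 5.03, 5.49 and 6.10 in MP cells. It was at 6.32, 5.99 and 5.79 in CD157+CD200+ and at -0.84, -0.65 and -1.32 in CD157-CD200- cells. SP and MP arrays were only just apart. Its differences were -0.67 ± 0.28 (adjusted p = 0.13) and 6.97 ± 0.28, and under quantile normalization or the normexp correction the first was called as well. Tgfb2, a transforming growth factor, differed by -0.25 ± 0.32 and 5.69 ± 0.32. Its arrays lay between 0.39 and 1.59 in SP and MP cells and at or below -3.10 in CD157-CD200- cells. Dhh, the endothelial hedgehog ligand, differed by -0.02 ± 0.36 and 5.35 ± 0.36, and Edn1, which encodes the vasoconstrictor endothelin, by -0.49 ± 0.33 and 6.23 ± 0.33. Entpd1, the ectoenzyme CD39 that degrades ATP and ADP, differed by 0.40 ± 0.26 and 5.76 ± 0.26. Its partner in that pathway, Nt5e, was among the genes that went opposite ways. Each of Tgfb2, Dhh, Edn1 and Entpd1 was moved by the antibody sort alone in all other settings that tested it.

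Eln, which encodes elastin, was at 3.91, 3.33 and 2.76 in SP, 3.69, 2.80 and 4.07 in MP, 4.78, 4.61 and 5.19 in CD157+CD200+ and -3.18, -2.98 and -1.67 in CD157-CD200- cells. SP and MP arrays overlapped, and the differences were -0.19 ± 0.44 and 7.47 ± 0.44. Fbln2, a fibulin, differed by 0.63 ± 0.31 and 6.81 ± 0.31, and Ltbp1, which tethers latent TGF-beta to the matrix, by 0.04 ± 0.42 and 4.66 ± 0.42. Fbln5, another fibulin, rose in both sorts, by 1.64 ± 0.35 and 6.62 ± 0.35, and its interaction of -4.98 ± 0.50 was called. Of 31 matrix genes, 14 were higher and 1 was lower in SP cells, 19 were higher and 3 were lower in CD157+CD200+ cells, and 9 had a called interaction, 7 of them below 0. Over all features the shares were 9.62% and 8.03%, 6.65% and 5.63%, and 4.14% for the interaction. Of 23 BMP and TGF-beta genes, 11 had a called interaction, 5 above and 6 below 0. Among 23 Weibel-Palade genes it was called in 6, with 5 below 0. Myrip, which links secretory granules to the cell skeleton, was one of the 5: CD157+CD200+ cells held at least 72.1-fold more of it, and it differed by 1.15 ± 0.47 (adjusted p = 0.12) in the side-population sort. Without MP replicate 3, Myrip was called in the side-population sort too, with interactions over all settings of -7.75 to -2.76.

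Rrm2 went opposite ways in the other direction. Its level was -0.62, -0.60 and -0.70 in SP and -1.56, -2.03 and -2.57 in MP cells. It was -2.33, -1.99 and -2.77 in CD157+CD200+ and -1.31, -0.85 and -0.51 in CD157-CD200- cells. The groups of each sort were apart, with SP and CD157-CD200- cells on the high side. Rrm2 was 2.66-fold higher in SP than in MP cells (difference 1.41 ± 0.30, adjusted p = 0.0059) and lower in CD157+CD200+ cells by 2.78-fold (difference -1.48 ± 0.30, adjusted p = 0.0049). The interaction was 2.89 ± 0.42 (adjusted p = 0.0020), with 1.59 to 3.14 over 24 other settings, all called. Slide by slide the differences were 0.94, 1.43 and 1.86, and -1.02, -1.14 and -2.27.

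Cks2, a small subunit that docks on cyclin-dependent kinases, was at 1.41, 1.78 and 1.51 in SP and -0.46, -0.32 and -1.18 in MP cells. It was at -1.70, -1.90 and -1.5 in CD157+CD200+ and -0.60, -1.0 and 0.10 in CD157-CD200- cells, with no overlap in either sort. Its differences were 2.22 ± 0.30 (adjusted p = 0.00031) and -1.20 ± 0.30 (adjusted p = 0.019). It no longer counted as opposite without CD157+CD200+ replicate 1 or 2 or CD157-CD200- replicate 3, and its interaction remained called, at 2.52 to 3.67. Foxm1, the transcription factor that switches on mitotic genes, had differences of 1.15 ± 0.25 (adjusted p = 0.0077) and -0.86 ± 0.25 (adjusted p = 0.044). The second lies near the threshold, and Foxm1 counted as opposite in 9 of 23 other settings, losing one of its calls on leaving out SP replicate 2, MP replicate 2 or 3, or any antibody-sort array but CD157-CD200- replicate 2. Its interaction was 0.67 to 2.22 over those settings. Cdt1, a factor that licenses replication origins, was at 0.03, -0.26 and 0.32 in SP and at -2.64, -2.79 and -2.41 in MP cells, a difference of 2.65 ± 0.28 (adjusted p = 4.9e-05). Its antibody-sort difference was 0.63 ± 0.28 (adjusted p = 0.20) and its interaction was 2.02 ± 0.40 (adjusted p = 0.014). Without CD157-CD200- replicate 3 the antibody-sort difference was called as well. Ccna2, which encodes cyclin A, was lower in the antibody sort alone, by -1.61 ± 0.35 against 0.80 ± 0.35 in the side-population sort, and lost its interaction call after the normexp correction.

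As lists, 29 S-phase genes and 24 mitosis genes held 53 measured members. In the side-population sort 12 of them rose (9.62% of all features did) and none fell, and in the antibody sort 11 fell (5.63% of all features did) and none rose. The interaction was called in 11 of 53, against 4.14% of all features, all above 0, with a median of 0.92 and 44 of 53 above 0. Their 2 differences had opposite signs in 33 of 53, against 8084 of 24865 features overall. Median differences were 0.35 and -0.37. Interactions of Tk1, Prc1 and Kif11 were called in 15, 12 and 13 of 23 other settings, and that of Mcm7 in 14 of 24. Those of Rrm2 and Cdt1 were called in 24 and 23 of 24, and those of Foxm1 and Ccna2 in 22 and 21 of 23. Summed levels overlapped between SP and MP arrays for both lists. In the antibody sort they overlapped for S phase. Mitosis sums were lower in CD157+CD200+ cells, at 14 to 16.1 against 18 to 22.2. Of the 53 genes, 44 had a RefSeq promoter entry, and 31 of these held CCAAT, against 37.5% of 27025 gene symbols. Among those with a called interaction it was 6 of 9. Of 20 cell-cycle inhibitors, 2 had a called interaction, Trp53, the gene of p53, and Tob1, an antiproliferative protein. Both lay above 0, at 1.30 and 1.33, and were called in 17 and 11 of 24 other settings, with adjusted p up to 0.066 and 0.084. The cyclin gene Ccnd1, counted here as a Wnt target, was lower in the antibody sort alone, at 2.78, 2.88 and 2.78 against 4.75, 4.66 and 4.68, and its side-population difference was -0.30 ± 0.24. Its interaction of 1.58 ± 0.33 (adjusted p = 0.020) was lost without SP replicate 3, MP replicate 3 or CD157+CD200+ replicate 1, where adjusted p reached at most 0.054.

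Other genes that were higher in SP and lower in CD157+CD200+ cells had smaller differences than those of the reverse pattern. The 19 named genes of this direction had medians of 1.16 and -1.23, with both differences at least 2-fold in 10. Il2rb, a chain of the receptors for interleukins 2 and 15, was at -1.98, -1.85 and -1.74 in SP and -3.69, -4.66 and -3.15 in MP cells. It was at -1.99, -2.66 and -2.64 in CD157+CD200+ and -1.09, -0.35 and -0.79 in CD157-CD200- cells. Neither sort's groups overlapped, and its differences of 1.98 ± 0.35 and -1.69 ± 0.35 were opposite in all 23 other settings. The summed level of 6 lymphocyte markers was 10.65 to 13.37 on SP, 12.88 to 13.15 on MP, 7.54 to 8.59 on CD157+CD200+ and 8.42 to 10.28 on CD157-CD200- arrays, and its part in this result was not tested. Foxq1, a forkhead transcription factor, differed by 1.65 ± 0.45 (adjusted p = 0.023) and -2.10 ± 0.45 (adjusted p = 0.0070). It stopped counting as opposite without MP replicate 1 or 3 or SP replicate 2 or 3, with an interaction of 1.59 to 4.10 over all settings. Adam1a, a disintegrin metalloproteinase gene, differed by 1.35 ± 0.22 and -1.13 ± 0.22 and counted as opposite in 22 of 23 other settings.

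Hepatocyte transcripts were among the genes that set the sorts apart. Alb, which encodes albumin, was at 1.80, 1.67 and 2.01 in SP, 0.58, 0.44 and 0.77 in MP, 1.53, 1.79 and 1.93 in CD157+CD200+ and 2.48, 3.25 and 2.20 in CD157-CD200- cells. Its differences of 1.23 ± 0.26 (adjusted p = 0.0063) and -0.89 ± 0.26 (adjusted p = 0.044) were both called in 8 of 24 other settings, and leaving out any array but CD157-CD200- replicate 3 lost one of them. Its interaction was called in all 24, at 1.82 to 2.35. Asgr1, the asialoglycoprotein receptor of hepatocytes, was at -2.38, -1.92 and -1.72 in SP and -2.17, -2.15 and -2.17 in MP cells, which overlapped. In CD157+CD200+ cells it was at -2.72, -2.5 and -1.66 and in CD157-CD200- cells at -0.12, -0.09 and 0.68, with no overlap. Its differences were 0.16 ± 0.31 and -2.45 ± 0.31 (interaction adjusted p = 0.0049). Rbp4, the retinol carrier made by liver, differed by 0.18 ± 0.29 and -1.93 ± 0.29.

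Of 14 hepatocyte markers, 3 were higher and 2 were lower in SP cells, against 9.62% and 8.03% of all features. In CD157+CD200+ cells none was higher and 9 were lower, against 6.65% and 5.63%. The interaction was called in 3 of the 14, all above 0, against 4.14% of all features. The markers' summed level was 14.3 to 16.2 on SP, 13.5 to 14.3 on MP, 16.9 to 21.8 on CD157+CD200+ and 47.8 to 55.6 on CD157-CD200- arrays. At least 12 of the 14 were well above background on every array. Erythroid markers showed the same group as the high one, with sums of 4.07 to 5.34, 3.89 to 5.47, 1.97 to 3.94 and 13.4 to 26.1 in that order, and Kupffer cell markers were at 27.0 to 31.3, 26 to 35.9, 28.1 to 31.5 and 40.8 to 54.9. The CD157-CD200- arrays therefore carried the most signal of all 3 lists, and the part of this signal in the antibody-sort differences was not tested. Genes of the antibody-sort-only lower set outside these lists included Ifi204, an interferon-inducible DNA sensor, with differences of 0.07 ± 0.26 and -2.24 ± 0.26. Another was Pde3b, a cyclic nucleotide phosphodiesterase, with 0.32 ± 0.24 and -1.93 ± 0.24. Both were moved by the antibody sort alone in all 24 other settings. The 102 named genes of this set had medians of 0.24 and -1.85.

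**Figure D5:**
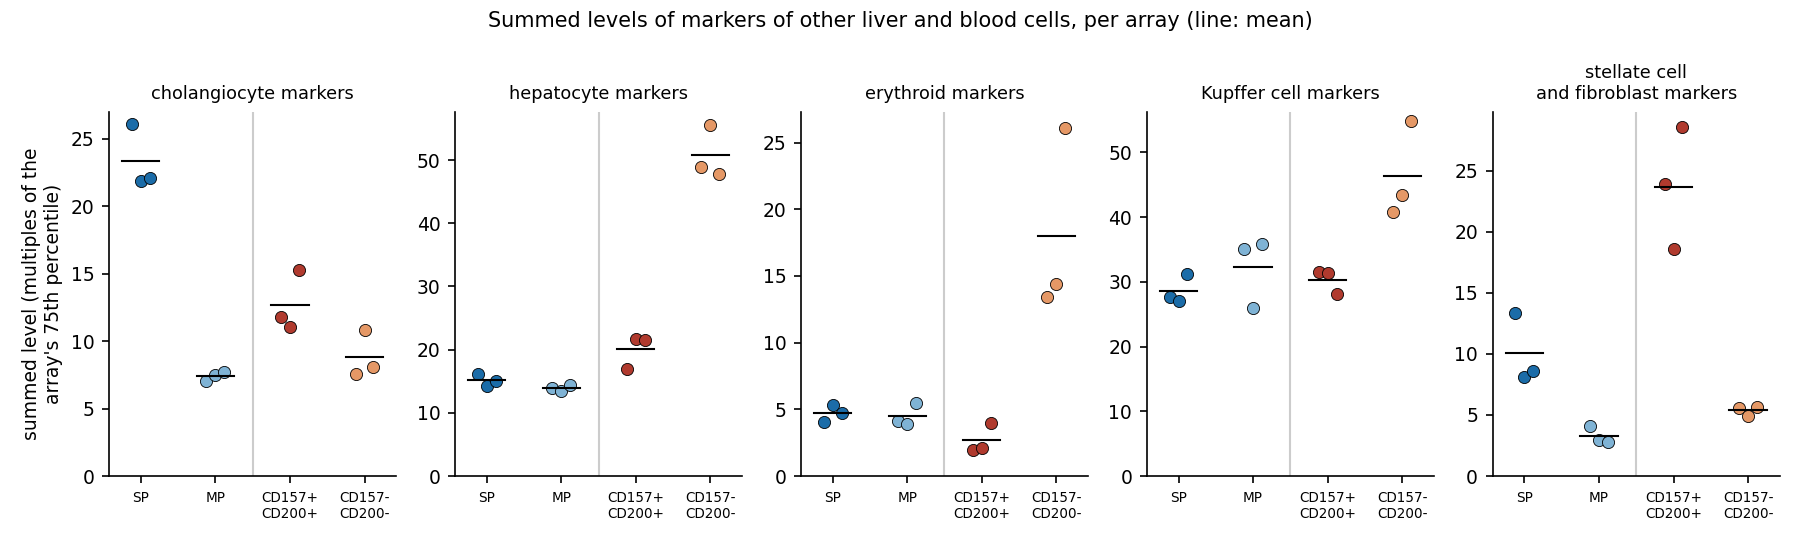
Summed level of marker genes of other liver cells on each array, in multiples of the array's 75th percentile, with one point per array and groups on the horizontal axis. Hepatocyte sums are 47.8 to 55.6 in CD157-CD200- cells and at most 21.8 elsewhere, and cholangiocyte sums are 21.9 to 26.1 in SP cells and at most 15.3 elsewhere.

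The side-population sort alone raised a set that included immune and interferon genes. Cd274, which encodes the T-cell checkpoint ligand PD-L1, was at 1.63, 1.69 and 1.91 in SP and -0.31, -0.15 and -1.16 in MP cells. In the antibody sort it was at 0.52, 0.73 and 0.40 against 0.74, 1.03 and 0.70, which overlapped. Its differences were 2.28 ± 0.26 (adjusted p = 8.2e-05) and -0.28 ± 0.26 (adjusted p = 0.64), with an interaction of 2.56 ± 0.37 (adjusted p = 0.0019). Rsad2, the interferon-induced antiviral enzyme viperin, differed by 2.00 ± 0.25 and -0.75 ± 0.25 (adjusted p = 0.068), with an interaction of 2.75 ± 0.35 (adjusted p = 0.00070). Its antibody-sort difference was called after the normexp correction and without MP replicate 3, which would make it opposite. Of 22 interferon-stimulated genes, 10 were higher in SP cells, against 9.62% of all features, and none was lower. In CD157+CD200+ cells 1 was higher and 3 were lower, against 6.65% and 5.63% of all features. An interaction above 0 was seen in 21, against 12547 of 24865 features, and 2 were called, against 4.14%. Their medians were 0.86 and -0.07.

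Trim59, a tripartite motif gene, was another gene that the side-population sort alone raised. Its level was 0.46, 0.82 and 0.89 in SP and -2.08, -1.26 and -1.48 in MP cells, and its antibody-sort groups overlapped. The differences were 2.33 ± 0.27 and -0.35 ± 0.27. Slc19a2, a thiamine transporter, differed by 2.16 ± 0.24 and -0.07 ± 0.24, and Dll4, the Notch ligand of arterial endothelium, by 1.90 ± 0.24 and 0.05 ± 0.24. Trim59, Slc19a2, Cd274 and Dll4 kept this description in all 24 other settings. The named genes Cxcl2, Grb7 and Chac1 did not: their interactions of 2.45, 2.31 and 2.26 were called in 12 of 24, 11 of 23 and 13 of 24 other settings. Leaving out single arrays lost the call in 9, 8 and 8 of 12 cases, with adjusted p up to 0.077, 0.093 and 0.089. The 168 named genes of the set had medians of 1.68 and -0.12.

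Bile duct markers stood high in SP cells. Krt19, a keratin of cholangiocytes, was at 2.09, 1.34 and 1.75 in SP, -0.93, -1.25 and -0.50 in MP, 0.53, 0.62 and 0.84 in CD157+CD200+ and 0.14, 0.64 and -0.57 in CD157-CD200- cells. Its differences were 2.62 ± 0.32 and 0.59 ± 0.32, and its interaction of 2.02 ± 0.45 (adjusted p = 0.026) was called in 15 of 24 other settings. It was lost without SP replicate 1 or 3, MP replicate 1 or 2, CD157+CD200+ replicate 1 or 2 or CD157-CD200- replicate 1, with adjusted p up to 0.069. Of 13 cholangiocyte markers, 10 were higher in SP cells, against 9.62% of all features. None was called in the antibody sort, against 12.3% of all features, and 3 had a called interaction, against 4.14%. The markers' median differences were 2.06 and 0.63. Their summed level was 21.9 to 26.1 on SP, 7.02 to 7.68 on MP, 11.1 to 15.3 on CD157+CD200+ and 7.58 to 10.8 on CD157-CD200- arrays, with all 13 well above background on the SP arrays. The part of this signal in the genes raised by the side-population sort was not tested.

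The side-population sort alone lowered a further set. Rarb, a retinoic acid receptor, was at -1.39, -2.07 and -1.78 in SP and 1.41, 1.6 and 1.79 in MP cells. It was at 1.79, 1.69 and 1.26 in CD157+CD200+ and 1.86, 1.72 and 1.5 in CD157-CD200- cells. The SP arrays alone were low, and the antibody-sort groups overlapped. Its differences were -3.35 ± 0.23 (adjusted p = 2.2e-06) and -0.11 ± 0.23 (adjusted p = 0.88), with an interaction of -3.24 ± 0.33 (adjusted p = 0.00014). Hpse, the enzyme that cuts heparan sulfate chains, was at 0.42, -0.24 and -0.80 in SP and 2.49, 2.87 and 2.41 in MP cells. It differed by -2.80 ± 0.30 and by 0.27 ± 0.30 in the antibody sort.

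Slco3a1, an organic anion transporter, differed by -2.58 ± 0.27 and 0.39 ± 0.27, and Plppr5, a phospholipid phosphatase-related membrane protein, by -2.89 ± 0.23 and -0.14 ± 0.23. Smad6, an inhibitor of BMP signalling, differed by -2.32 ± 0.30 and 0.20 ± 0.30 while the ligand Bmp4 was moved by the antibody sort. Fhdc1, a formin, was not well above background on any SP array and was at least 3.10-fold lower there than in MP cells. Its antibody-sort difference was 0.35 ± 0.23 (adjusted p = 0.42). Rarb, Hpse, Slco3a1 and Plppr5 kept this description in all 24 other settings. The 114 named genes of the set had medians of -1.80 and 0.25.

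Genes that both sorts moved the same way could still differ by size. Noct, a circadian phosphatase, was at 2.94, 2.93 and 3.51 in SP and -1.47, -1.83 and -1.63 in MP cells. It was at 1.48, 1.70 and 1.38 in CD157+CD200+ and -0.28, -0.11 and -0.74 in CD157-CD200- cells. It rose in both sorts, by 4.77 ± 0.24 and 1.90 ± 0.24, with an interaction of 2.87 ± 0.34 (adjusted p = 0.00041). St8sia4, a polysialyltransferase, rose by 4.88 ± 0.39 and 1.72 ± 0.39, and Plaur, the urokinase receptor, by 3.40 ± 0.22 and 1.04 ± 0.22. Among genes that fell in both, Ehd3, an endocytic protein of sinusoids, was at 0.64, 0.27 and 0.64 in SP, 4.69, 4.39 and 4.21 in MP, 3.78, 3.53 and 3.50 in CD157+CD200+ and 5.73, 5.54 and 5.70 in CD157-CD200- cells. Its fall was -3.91 ± 0.20 in the first sort and -2.05 ± 0.20 in the second (interaction adjusted p = 0.0031).

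The reverse was more common, with 98 features (0.394%) changed more by the antibody sort and 36 (0.145%) more by the side-population sort. Mall, a MAL-family membrane protein, rose by 2.62 ± 0.60 and 7.52 ± 0.60. Gja5, the arterial connexin 40, was at 5.34, 4.68 and 4.68 in SP, 3.56, 2.19 and 3.56 in MP, 5.87, 5.58 and 5.91 in CD157+CD200+ and -0.20, -0.21 and -0.07 in CD157-CD200- cells. Its rise was 1.80 ± 0.34 against 5.95 ± 0.34 (interaction adjusted p = 0.00036). Bmx, a tyrosine kinase of arterial endothelium, rose by 1.47 ± 0.29 and 4.0 ± 0.29. These 2 genes do not stand for their list of 19 periportal sinusoid and arterial genes. In it 1 interaction was called above 0 and 4 below, against 1.66% and 2.47% of all features. Yet 13 of the 19 lay above 0, against 12547 of 24865 features, and the list's median interaction was 0.54. Its median difference was 1.75 in the side-population sort and 0.91 in the antibody sort. Of 20 large-vessel genes, 10 were higher and 2 were lower in SP cells, 13 were higher and none was lower in CD157+CD200+ cells, and all 9 called interactions were below 0. Over all features the shares were 9.62% and 8.03%, 6.65% and 5.63%, and 4.14% for the interaction. For Mall, Gja5 and Bmx, as for Vwf, Bmp4 and Eln, every MP array lay above every CD157-CD200- array. Those arrays came from different scanners, so the levels rest on the array scaling alone. These genes were named for an interaction below 0, into which both groups enter, so this is a description and tests nothing.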

How the data were processed

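Intensities came from Agilent 1-colour scanner files deposited by the authors, 1 per sample: the processed signal of each spot as Agilent Feature Extraction wrote it, per the file headers (version 10.10.1.1 for SP and MP, 11.5.1.1 for the antibody sort). Per the labels' protocols, RNA was column-extracted and amplified with a whole-transcriptome kit before Cy3 labelling. The authors' deposited series table holds these intensities times a constant per array of unknown basis and served as an alternative.

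Here the log2 of each deposited intensity, less the array's log2 75th percentile, was averaged over a probe's spots, leaving out control and outlier spots. A probe was kept where some group of the 4 had it well above background on its 3 arrays, and the brightest probe stood for a gene. Of 55681 probes, 28059 had a symbol through RefSeq accessions. limma 3.58.1 (R 4.3.3) fitted 1 mean per group over 12 arrays, and the interaction was a contrast (two-sided moderated test, Benjamini-Hochberg over 24865 features, threshold 0.05). At least-fold bounds compare a bright group with the detection limit of the dim one. On simulated data, 0%, 40%, 78% and 94% of interactions of log2 size 1, 2, 3 and 4 were recovered (50 each), and 4 of 110 calls were false. The arrays' small number limits precision.

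Each slide held the arrays of 1 replicate number of 1 sort. Same-numbered samples deviated together, with correlations of 0.259, 0.299 and 0.343 for SP with MP and 0.257, 0.441 and 0.521 for CD157+CD200+ with CD157-CD200-, so the numbers pair the samples, and counts with the replicate block stand beside the unblocked ones.

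The genes compared and the lists were chosen with earlier results of these data known. Named were Rspo3, Wnt9b, Vwf, Rrm2 and the sort and lineage genes, the 10 opposite genes per direction with the largest interaction, 6 genes per direction changed in 1 sort, 4 per direction changed more in 1 sort, and up to 4 members of a list. Some genes that the rule names are not reported here. Of 85 named opposite genes, 64 had a RefSeq promoter entry. Alternatives were quantile, median and normexp settings, the deposited table, the background filter, blocks, weights, probe means, thresholds and each array left out.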

Additional observations from a re-analysis of the deposited data

Results flagged for a closer look

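The difference between the 2 sorts was itself tested, and 1029 features passed, 111 of them with called differences of opposite sign. Groups of 3 arrays are too small for a check of single outlying arrays.

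The CD157-CD200+ arrays, which no comparison above used, showed signal for the opposite genes above the CD157-CD200- arrays. The excess of the CD157-CD200+ mean over the CD157-CD200- mean was 4.95 for Rspo3 and 4.29 for Wnt9b on the log2 scale. For Fndc1 it was 8.74, and it was 6.85 for Col6a3 and 5.41 for Col14a1. It was 5.86 for Serpina3n, 5.28 for Nt5e, 6.38 for Nts and 6.76 for Sprr2b, and 7.75 for Samd5 and 5.89 for Arhgap6. All 3 CD157-CD200+ arrays lay above all CD157-CD200- arrays in 66 of the 66 named genes lower in SP cells, against 12.5% of all features. They lay above all CD157+CD200+ arrays in 38 of these genes, against 1684 of 24865 features. For genes of the other direction they lay below the CD157-CD200- arrays in 17 of 19, against 11.8% of all features. The genes were chosen with the CD157-CD200- arrays, so these counts are a description.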

How the results depend on the processing

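All 111 opposite features kept the sign of their interaction in every alternative that tested them, with 71 of them tested where all 12 arrays had to be above background. Rspo3, Wnt9b, Vwf and Rrm2 kept their description in all 24. The counts moved by more than 1.5 times in these settings. With the replicate block, 1799 features had a called interaction, 205 were opposite and 807 were moved by the side-population sort alone. Without a filter on dim probes these were 579, 73 and 180. At an adjusted p under 0.01 they were 407, 45 and 124, with 185 moved by the antibody sort alone, and the normexp correction, run on median signals, gave 646 moved by the side-population sort alone. Leaving out single arrays gave 624 to 915 interactions, 74 to 104 opposite features, 231 to 338 moved by the side-population sort alone and 219 to 364 by the antibody sort alone. The lowest counts, 624, 231 and 219, came without CD157+CD200+ replicate 1. Without CD157+CD200+ replicate 2 there were 684 interactions and 251 features moved by the side-population sort alone, and the latter count was 249 without SP replicate 3 and 236 without MP replicate 3. The causes were not tested. The share of interactions above 0 was 40.2%, against 27.1% in the deposited table, where the median side-population difference was -0.17, and 53.6% after normexp. Beside the changes given with the results, the replicate block ended or made the interaction call of 4 of 108 named genes. Where a gene was below background on every array of 1 group, that difference has only a bound. Other fitted differences can rest in part on arrays below background, as for Serpina3n and Col6a3.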

Other observations

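Of 10 genes of MHC class II presentation, 6 were higher and 1 was lower in SP cells, 5 were higher and 1 was lower in CD157+CD200+ cells, and none had a called interaction, against 4.14% of all features, with medians of 1.5 and 1.74. Of all features, 9.62% were higher and 8.03% lower in SP cells, and 6.65% and 5.63% in CD157+CD200+ cells. These shares and the 4.14% also stand beside the 2 lists that follow. Of 24 immediate-early genes, 12 rose in SP and 13 in CD157+CD200+ cells and none fell in either, and 2 had a called interaction, both above 0. Of 23 leukocyte adhesion and chemokine genes, 14 were higher and 3 were lower in SP cells and 11 were higher and 4 were lower in CD157+CD200+ cells, with 2 called interactions on each side of 0.

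Of 8 dye efflux transporters, 6 were higher and 1 was lower in SP cells, against 9.62% and 8.03% of all features. In CD157+CD200+ cells 4 were higher and 2 were lower, against 6.65% and 5.63%. Abcc3, a transporter of organic anions, had differences of 0.72 ± 0.21 (adjusted p = 0.034) and -1.47 ± 0.21, so it went opposite ways, as it did in 15 of 24 other settings. It was lost as opposite without SP replicate 1 or 2, MP replicate 1 or 3 or CD157+CD200+ replicate 1, while its interaction stayed at 1.80 to 2.34. Of 18 lipid-handling genes 2 had a called interaction, both below 0, against 4.14% of all features with a call in either direction.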
